A study of Rattus norvegicus with 20 samples.

Results

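Macrophages and other myeloid cells of the right ventricle are followed here through 36 genes that mark or serve them, in rats with chronic pulmonary embolism (PE). The genes were taken from a list of names that was chosen with earlier results of these data known. A gene counted as measured where a probe set (the probes that together read a transcript) carried its symbol alone in the platform annotation. This gave 34 measured genes with 42 probe sets, among 14217 measured genes and 31042 probe sets in all. Spi1, which encodes the myeloid transcription factor PU.1, and Msr1, a scavenger receptor, had no such probe set. The measured genes comprise 8 resident-type macrophage markers, 8 inflammatory, monocyte and granulocyte genes, 8 pan-leukocyte and shared myeloid genes, 8 lysosomal, lipid-handling and scar-associated genes, the growth factor Csf1 and the inhibitory Fc receptor Fcgr2b.

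Right ventricular RNA of male Sprague Dawley rats of about 350 g was measured on 20 Affymetrix arrays. PE rats had received 2000000 polystyrene microspheres of 25 micron for every 100 g of body weight through the right jugular vein, which lodge in the vessels of the lung and load the right ventricle, and vehicle rats the Tween-20 solution (0.01%) that carried them. At 6 weeks the ventricle was split into apex and outflow tract (base). Treatment and region gave 4 groups of 5 arrays each, and the labels give no age. The titles and the injection field separate PE from vehicle, while a field on tissue collection names vehicle for every sample, and the groups follow the titles.

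Resident cardiac macrophages are long-lived phagocytes that clear dying cells and debris. They depend on CSF1 or IL-34 acting on the receptor CSF1R, and carry scavenger and mannose receptors and complement C1q. Monocytes and neutrophils recruited from blood bring other products, among them the calcium-binding proteins S100A8 and S100A9, while macrophages that take up debris and lipid in injured or scarring tissue raise lysosomal proteases, galectin-3, GPNMB, TREM2 and apolipoprotein E. PU.1 binds purine-rich sequences with a GGAA core near the start of many of these genes.

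Promoter windows (250 bases before to 50 after an annotated transcript start, RefSeq, build GRCr8) were held for 22 of the 34 measured genes. The windows were searched for the purine-rich run GAGGAA, the core of many PU.1 sites, on both strands (TTCCTC on the other strand). At least 1 window held it in 19 of the 22 genes (86.4%), against 8021 of 27457 genes with a window (29.2%). A single window held it in 27.6% of 33469 cases, so genes with several windows have more chances of a match. Among the 19 genes with a window that rose in the PE outflow tract (below), 16 held it (84.2%), and so did Itgam, S100a9 and Cd63, which did not pass the test there. These 5 windows of 120 bases, each ending at the base before the start, show the match close to the start of a pan-leukocyte gene, a resident-type receptor, a lysosomal protease and a scavenger marker, and 1 resident-type gene without a match. Capitals mark the match.
Laptm5: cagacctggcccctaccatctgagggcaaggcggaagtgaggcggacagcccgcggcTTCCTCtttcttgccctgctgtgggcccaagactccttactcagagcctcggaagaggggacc
Mrc1: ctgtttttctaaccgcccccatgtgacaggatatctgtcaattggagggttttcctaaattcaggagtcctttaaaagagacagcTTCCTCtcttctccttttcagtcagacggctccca
Ctss: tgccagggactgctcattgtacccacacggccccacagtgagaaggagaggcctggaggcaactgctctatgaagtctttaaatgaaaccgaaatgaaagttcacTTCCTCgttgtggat
Cd68: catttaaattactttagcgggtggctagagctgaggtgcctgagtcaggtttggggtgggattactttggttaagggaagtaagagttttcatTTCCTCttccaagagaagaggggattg
Cd163: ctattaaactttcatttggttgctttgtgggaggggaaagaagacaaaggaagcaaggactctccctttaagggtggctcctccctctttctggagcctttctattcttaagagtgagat
The window of Laptm5 lies at chr5:148371760-148371879 on the plus strand and its match begins 63 bases before the start. Mrc1 lies at chr17:82157605-82157724 (plus) with a match from base 35, Ctss at chr2:185775276-185775395 (plus) with a match from base 15, and Cd68 at chr10:54882442-54882561 (minus) with a match from base 27. The window of Cd163, at chr4:158770654-158770773 (plus), holds none, and neither does its full window. The windows of 120 bases of Adgre1, C1qa, Coro1a, Ptprc, Cd9, Gpnmb and S100a9 hold none either, so the windows shown do not give the share with a match there. A match is a run of letters, not a measured site, and PU.1 binding was not measured.

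The deposited signals are linear and were scaled by the authors to a common trimmed mean, and array medians lay between 123.02 and 159.4. The 7 measured cardiomyocyte markers, such as Myh6 and Tnnt2, were at or above the 99th percentile of all probe sets. The GAPDH ratio, of the signal at the 3' end over that at the 5' end, which rises when RNA or its labelled copy is short, was 1.38 to 1.83 on the vehicle arrays, 1.47 to 1.67 on the PE apex arrays and 1.70 to 2.34 on 4 PE outflow arrays, but 6.12 on PE outflow replicate 2. Results were therefore recomputed with this ratio as a covariate and without the PE outflow replicates 2, 4 and 5, whose ratios were the highest. In bulk tissue, more cells of a type and more RNA per cell cannot be told apart. Changes are log2 fold changes of the signal plus 16 with the standard error (SE) of a limma model of all 20 arrays, and a gene was called at an adjusted p under 0.05.

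In the outflow tract, 27 of the 34 genes rose after PE, 0 fell and 7 did not pass the test, against a background of 26.3% of all genes called higher and 18% called lower. Their median log2 fold change was 1.19, against 0.098 for all genes. The list was chosen with earlier results of these data known, so comparisons with all genes, here and below, are descriptive and no independent support. All 8 resident-type markers rose, as did 7 of the 8 pan-leukocyte genes, 7 of the 8 lysosomal and scar-associated genes, 4 of the 8 inflammatory genes and Fcgr2b. For 16 of the 34 genes every PE outflow array lay above every vehicle outflow array, against 18.8% of all genes. Across the PE outflow arrays, replicate 2 was the lowest for 25 of the 27 called genes, and replicate 4 or 5 was the highest for all of them (13 and 14 genes). This order was not computed over all genes, so it is not shown to be particular to these. With the GAPDH covariate 27 genes were called, and 25 without replicates 2, 4 and 5. With arrays centred on their median 27 were called, where 4415 of 10381 called probe sets in all were higher, against 6083 of 10720 on the deposited scale.

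**Figure D1:**
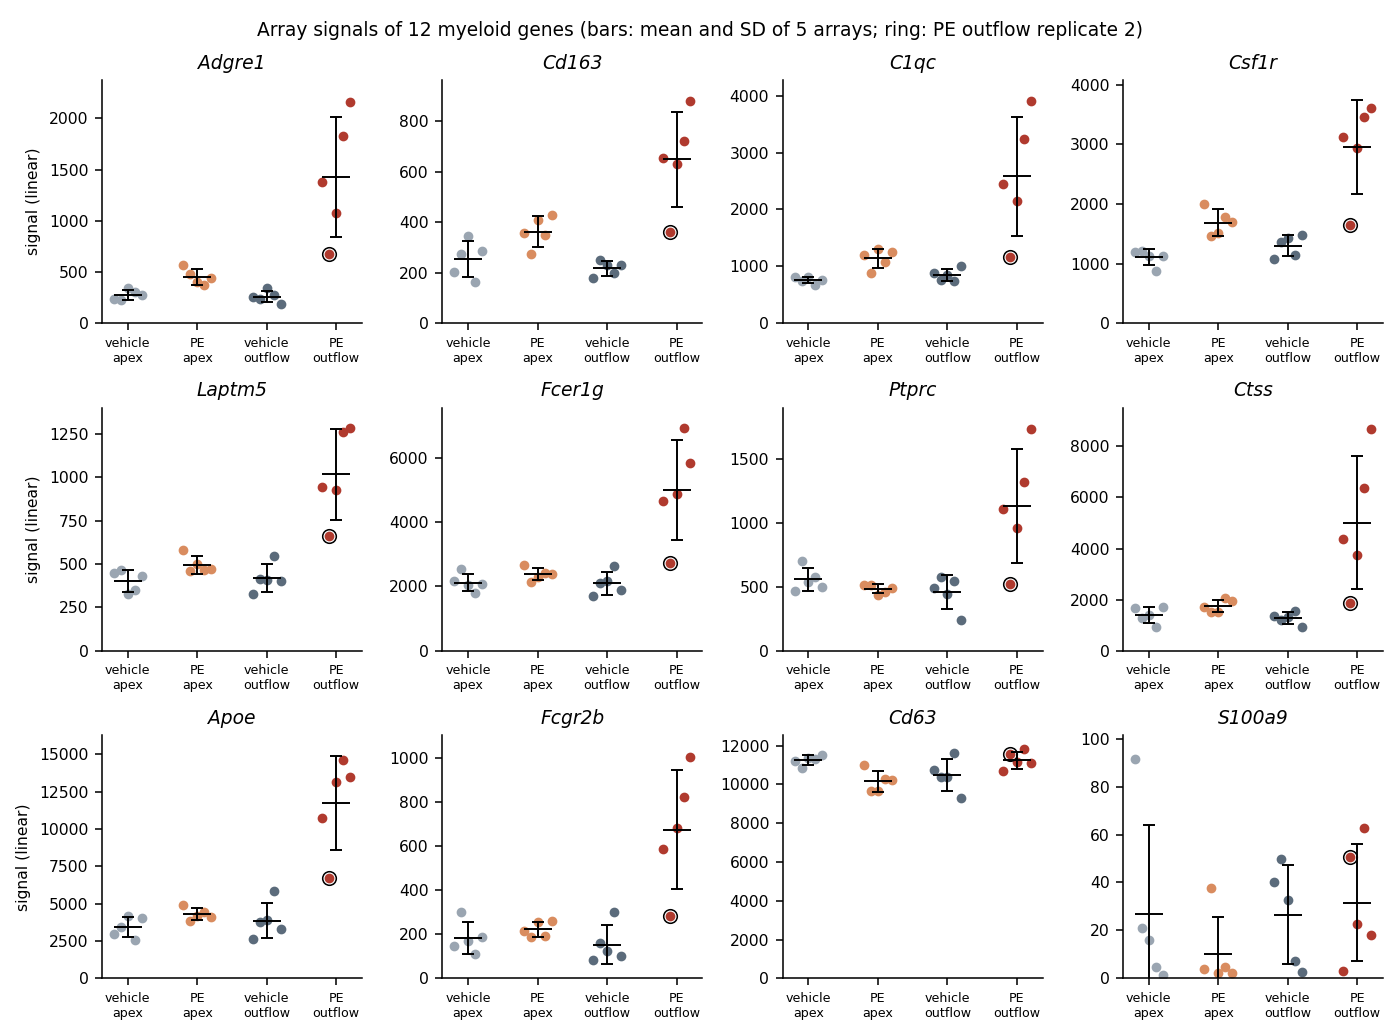
Linear array signals (y axis, from 0) of 12 myeloid genes in the 4 groups of 5 arrays, with bars for the mean and SD and a ring around PE outflow replicate 2. In the PE outflow group Adgre1 lies above all other groups and Csf1r above the vehicle groups, with its replicate 2 within the PE apex range, and both are higher in PE apex than in vehicle apex, Ptprc is high only on PE outflow arrays other than replicate 2, and Cd63 and S100a9 did not pass the test.

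Among the resident-type markers, Adgre1, which encodes the macrophage adhesion receptor F4/80, changed most. Its signal was 251, 237, 341, 272 and 188 on the vehicle outflow arrays (replicates 1 to 5, the order used throughout) and 1382, 679, 1078, 1825 and 2160 on the PE outflow arrays, a rise of 4.96-fold (log2 2.31 ± 0.24, SE with 5 arrays in each group, limma adjusted p = 7.1e-07). In the apex it was 239, 222, 341, 302 and 272 with vehicle and 569, 478, 403, 374 and 438 with PE (log2 0.69 ± 0.24, adjusted p = 0.473). The groups did not overlap in either region, and the lowest PE outflow array exceeded the highest PE apex array.

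Cd163, the haemoglobin scavenger receptor, had signals of 180, 251, 229, 197 and 229 on the vehicle outflow arrays and 654, 363, 631, 722 and 880 on the PE outflow arrays (log2 1.47 ± 0.21, adjusted p = 2.08e-05). All PE arrays were higher, with replicate 2 nearest to the vehicle range. C1qc, a chain of complement C1q, had 876, 753, 839, 738 and 999 with vehicle and 2451, 1172, 2153, 3246 and 3905 with PE (2.83-fold, with a 95% confidence interval of the log2 change of 1.03 to 1.97, adjusted p = 2.93e-05). Again the groups did not overlap. Its neighbours on chromosome 5, C1qa and C1qb, which encode the other chains, rose by log2 1.33 ± 0.23 and 1.19 ± 0.24, and for these a single PE array, replicate 2, reached into the vehicle range.

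Csf1r, the receptor for CSF1 and IL-34, had signals of 1080, 1359, 1425, 1136 and 1472 on vehicle outflow arrays and 3129, 1640, 2937, 3449 and 3615 on PE outflow arrays (log2 1.14 ± 0.18, adjusted p = 5.34e-05). In the apex the values were 1201, 1214, 1120, 879 and 1123 with vehicle and 2003, 1458, 1505, 1774 and 1694 with PE (log2 0.60 ± 0.18, adjusted p = 0.367). Both regions showed 5 PE arrays above 5 vehicle arrays, but only the outflow tract passed the test. Mrc1, the mannose receptor CD206, rose in the outflow tract by log2 1.63 ± 0.26 (apex 0.65), and Cd68, a lysosomal membrane glycoprotein of phagocytes, by 1.29 ± 0.21 (apex 0.25). Apex changes of Cd163, C1qa, C1qb and C1qc were 0.52, 0.78, 0.46 and 0.57, and none passed the test.

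The lysosomal, lipid-handling and scar-associated genes had a median log2 fold change of 1.41 in the outflow tract. Apoe, the lipid carrier apolipoprotein E, had signals of 2639, 3752, 3884, 5825 and 3280 on the vehicle outflow arrays and 10778, 6752, 13151, 14639 and 13461 on the PE outflow arrays (log2 1.60 ± 0.21, adjusted p = 9.99e-06). The groups did not overlap, although vehicle replicate 4 came within reach of PE replicate 2. Its second probe set read 2.34, 20.6, 2.46, 2.00 and 7.47 with vehicle and 2.03, 21.1, 2.47, 6.03 and 2.81 with PE (log2 -0.0068 ± 0.20), among the dimmest 1% of probe sets. Lgals3, galectin-3, a lectin linked to fibrosis, had 1500, 1836, 1661, 2633 and 1673 with vehicle and 3962, 3658, 4192, 5572 and 5340 with PE (log2 1.29 ± 0.19, adjusted p = 2.2e-05). Here PE replicate 2 stood close to replicates 1 and 3 of its group, unlike for most of these genes.

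Ctss, cathepsin S, a protease of antigen-presenting cells, had 1360, 1215, 1320, 1564 and 941 on the vehicle outflow arrays and 4368, 1889, 3759, 6382 and 8668 on the PE outflow arrays (log2 1.80 ± 0.29, adjusted p = 6.32e-05). All PE arrays were higher, and the PE arrays spread widely. Trem2, a lipid-sensing receptor that signals through TYROBP, was dim with 9.12, 111, 74.7, 165 and 105 with vehicle and 322, 295, 250, 437 and 549 with PE (log2 2.03 ± 0.37, adjusted p = 0.00026), and its second probe set rose by 2.20 ± 0.49. The groups of the first probe set did not overlap. Gpnmb, a glycoprotein of lipid-laden macrophages, rose by 1.52 ± 0.37, the tetraspanin Cd9 by 1.13 ± 0.24 and cathepsin B, Ctsb, by 0.57 ± 0.11. Cd63, a tetraspanin of late endosomes in many cell types, changed by 0.11 ± 0.09 (adjusted p = 0.396), from signals of 9294 to 11608 with vehicle to 10674 to 11799 with PE. Its change ran from -0.028, with arrays centred on their median, to 0.43 over 22 alternative fits, and it was called higher in 1 of them.

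The lysosomal genes hardly differed in the apex. Their apex changes were 0.33 for Apoe and Ctss, 0.26 for Trem2 (0.02 on its second probe set), 0.19 for Lgals3, 0.03 for Ctsb, 0.01 for Cd9, -0.02 for Gpnmb and -0.15 for Cd63, and -0.05 for the dim Apoe probe set.

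**Figure D2:**
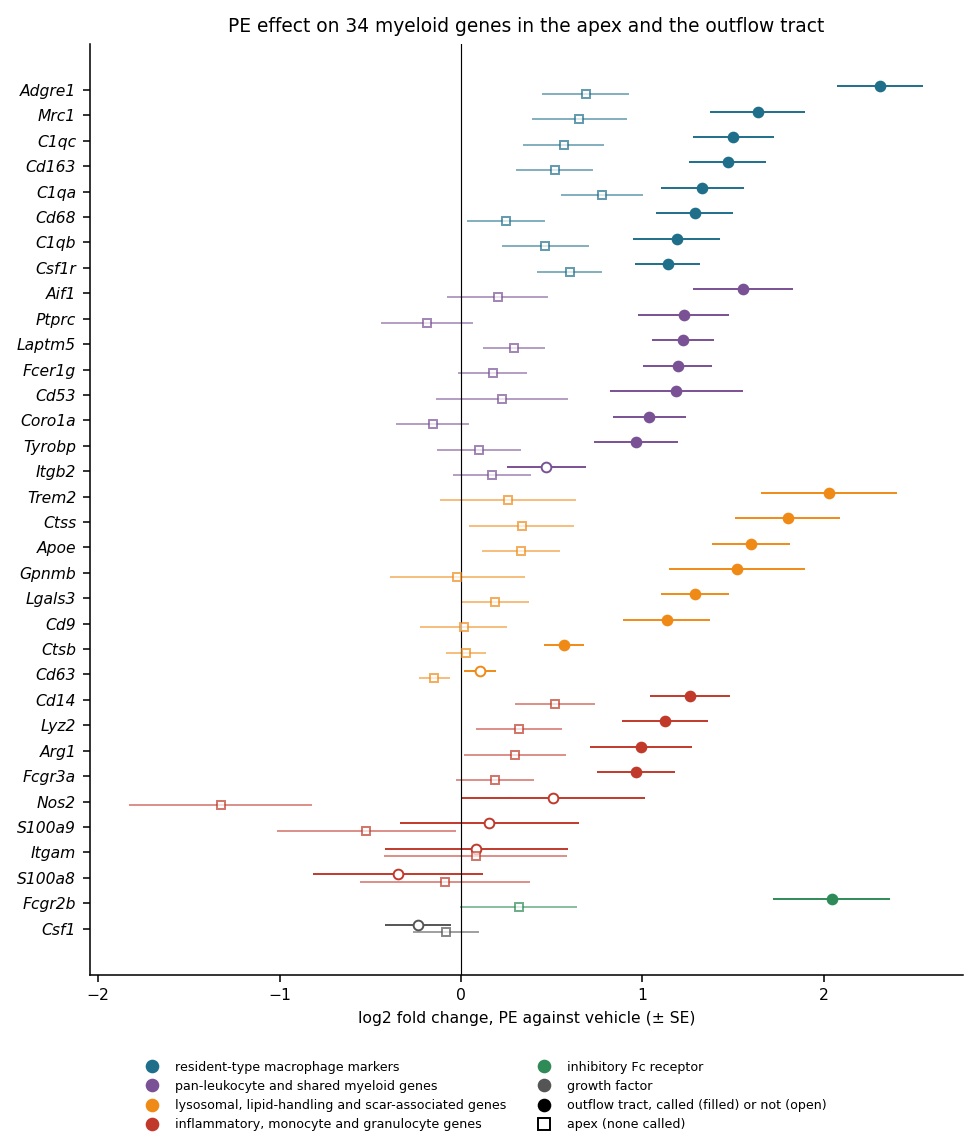
Log2 fold change of PE against vehicle (x axis, ± SE) for the 34 genes, ordered by class and then by size, with circles for the outflow tract (filled where called) and squares for the apex, where none was called. Resident-type markers have apex values from 0.25 to 0.78, and the other classes from -1.32 (Nos2) to 0.52 (Cd14).

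Of the pan-leukocyte and shared myeloid genes, Laptm5, a lysosomal protein of blood cells, had signals of 329, 412, 411, 546 and 401 on the vehicle outflow arrays and 945, 663, 927, 1264 and 1286 on the PE outflow arrays (log2 1.22 ± 0.17, adjusted p = 1.51e-05), with no overlap. Its second probe set rose by 1.63 ± 0.22. Fcer1g, the shared gamma chain of activating Fc receptors, had 1688, 2120, 2184, 2629 and 1884 with vehicle and 4651, 2717, 4857, 6925 and 5820 with PE (log2 1.19 ± 0.19, adjusted p = 5.64e-05), with PE replicate 2 just above the highest vehicle array. Coro1a, an actin regulator of leukocytes, had 508, 449, 446, 549 and 543 with vehicle and 1020, 656, 748, 1491 and 1606 with PE (log2 1.04 ± 0.20, adjusted p = 0.000435). Its groups too were apart.

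Aif1, which encodes the macrophage protein IBA1, had 383, 517, 458, 565 and 374 on the vehicle outflow arrays and 1428, 568, 1229, 2054 and 2273 on the PE outflow arrays (log2 1.55 ± 0.28, adjusted p = 0.000184). Replicate 2 lay level with the highest vehicle array, the others well above. A dim second probe set changed by 0.66 ± 0.45 (adjusted p = 0.292). Ptprc, the leukocyte antigen CD45, rose by 1.23 ± 0.25 and Tyrobp, the adaptor DAP12 of TREM2, by 0.96 ± 0.23, while the second probe set of Ptprc changed by 0.51 ± 0.47 (adjusted p = 0.462). Cd53, a leukocyte tetraspanin, rose by 1.19 ± 0.36 (adjusted p = 0.0154), but its call was lost when only the compared groups were fitted, without vehicle outflow replicate 5 and without PE outflow replicate 4. Itgb2, the integrin beta chain CD18, changed by 0.47 ± 0.22 (adjusted p = 0.103) and was called higher in 1 of 22 alternative fits.

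In the apex these genes changed by 0.29 (Laptm5; -0.00016 on its second probe set), 0.22 (Cd53), 0.20 (Aif1; 0.78 on its second), 0.17 (Fcer1g and Itgb2), 0.10 (Tyrobp), -0.16 (Coro1a) and -0.19 (Ptprc; -0.11 on its second). Fcgr2b, the inhibitory Fc receptor, had 83.8, 161, 123, 300.4 and 99.4 on the vehicle outflow arrays and 585, 282, 680, 820 and 1001 on the PE outflow arrays (log2 2.04 ± 0.32, adjusted p = 5.27e-05; apex 0.32). PE replicate 2 fell below vehicle replicate 4, and the other PE arrays were above all vehicle arrays.

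The inflammatory, monocyte and granulocyte genes were split. Cd14, the lipopolysaccharide co-receptor, had 489, 470, 403, 654 and 371 on the vehicle outflow arrays and 1288, 601, 1060, 1550 and 1531 on the PE outflow arrays (log2 1.26 ± 0.22, adjusted p = 0.000149). Lyz2, lysozyme, the brightest of this class, had 4848, 6782, 5729, 10077 and 5351 with vehicle and 14694, 8255, 14197, 17806 and 16508 with PE (log2 1.13 ± 0.24, adjusted p = 0.000871). For both, PE replicate 2 fell below vehicle replicate 4 and every other PE array lay above the vehicle range.

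Fcgr3a, the activating Fc receptor CD16 and neighbour of Fcgr2b on chromosome 13, had 109, 133, 111, 86.8 and 121 with vehicle and 149, 192, 209, 294 and 375 with PE in the outflow tract (log2 0.96 ± 0.21, adjusted p = 0.00147). Arg1, arginase, was dim, with 67.3, 38.7, 88.2, 34.3 and 41.0 against 91.1, 77.6, 79.4, 199.8 and 189.7 (log2 0.99 ± 0.28, adjusted p = 0.00905). Fcgr3a did not overlap, whereas 2 PE arrays of Arg1 lay within the vehicle range. Both calls were lost without PE outflow replicates 2, 4 and 5, at 0.60 and 0.59.

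The remaining 4 did not pass the test in the outflow tract. Itgam, the integrin CD11b, changed by 0.08 ± 0.50 (-0.049 with arrays centred on their median), Nos2, inducible nitric oxide synthase, by 0.51 ± 0.50, and the calprotectin chains S100a8 and S100a9 by -0.35 ± 0.47 and 0.16 ± 0.49. Their mean signals ranked between the 14th and 34th percentile of probe sets, and S100a9 ranged from 3.30 to 62.7 within the PE outflow group, so that their standard errors exceed those of every gene called. A change of S100a8 between log2 -1.33 and 0.63 lies within its 95% confidence interval, and of S100a9 between -0.88 and 1.19. In the apex the class showed 0.52 (Cd14), 0.32 (Lyz2), 0.30 (Arg1), 0.19 (Fcgr3a), 0.08 (Itgam), -0.09 (S100a8), -0.52 (S100a9) and -1.32 (Nos2).

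Csf1, the growth factor of macrophages, gave unequal answers on its 4 probe sets. The brightest, 1380582_at, had 859, 1434, 1322, 1193 and 1379 on the vehicle outflow arrays and 1054, 1502, 926, 1087 and 732 on the PE outflow arrays (log2 -0.24 ± 0.18, adjusted p = 0.359). The probe set 1379631_at had 246, 256, 395, 292 and 299.96 against 632, 370, 688, 831 and 887 (log2 1.11 ± 0.20, adjusted p = 0.000189). So the groups overlap on the first, while on the second 4 PE arrays lie above all vehicle arrays and only replicate 2 does not.

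Of the other Csf1 probe sets, 1380583_s_at had 240, 527, 516, 486 and 569 with vehicle and 508, 388, 438, 377 and 355 with PE (log2 -0.13 ± 0.20, adjusted p = 0.682). The dimmest, 1369354_at, had 107, 103, 110, 119 and 150 against 383, 168, 84.0, 215 and 110 (log2 0.47 ± 0.41, adjusted p = 0.423). In the apex the 4 probe sets changed by -0.08, 0.50, 0.04 and 0.18 in the order given, and none was called. The transcript part that each probe set reads was not analysed here.

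**Figure D3:**
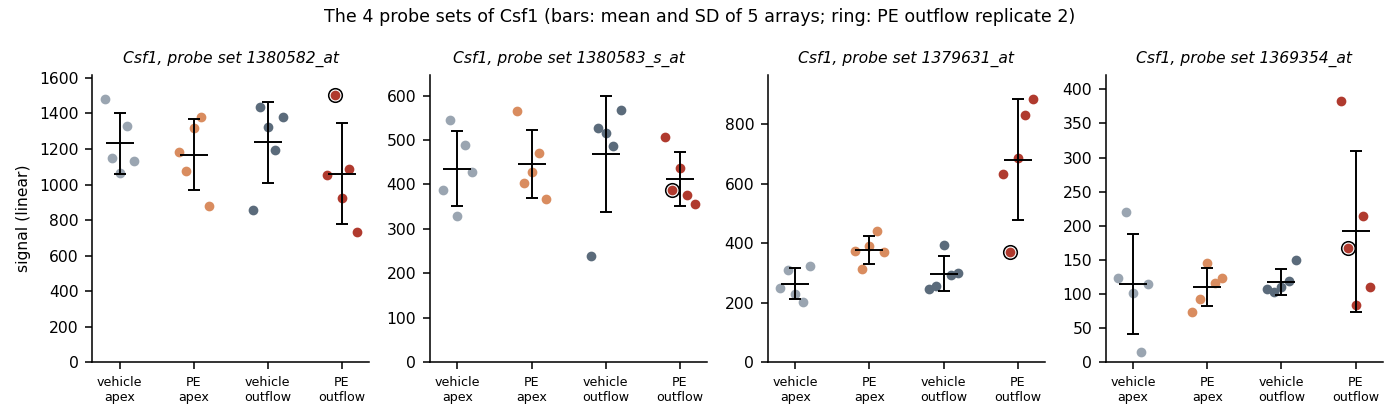
Linear signals (y axis, from 0) of the 4 Csf1 probe sets in the 4 groups of 5 arrays, with bars for the mean and SD and a ring around PE outflow replicate 2. Probe set 1379631_at alone separates most PE outflow arrays from the vehicle arrays.

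In the apex, 0 of the 34 genes passed the limma test, where 3 of all 14217 genes (0.0211%) were called higher. At an unadjusted p under 0.05 there were 8 genes (23.5%), 7 higher and 1 lower (Nos2), against 8.3% of all genes. The median change was 0.21, against 0.0028 for all genes. For 5 genes every PE apex array lay above every vehicle apex array (2.19% of all genes did so): Adgre1, Csf1r, C1qa, C1qc and Mrc1, all of the resident-type class. The C1qa signals were 1585, 1520, 1371, 1206 and 1575 with vehicle and 2642, 1942, 2879, 2990 and 2147 with PE in the apex (log2 0.78 ± 0.23, adjusted p = 0.351). All PE apex arrays were also above the lowest PE outflow array of C1qa, replicate 2 at 1700.

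The PE effect was larger in the outflow tract than in the apex for 17 of the 34 genes by a test of the difference itself, against 14.1% of all genes, and smaller for 0 (10.2%). The count was 11 with arrays centred on their median. The call held for 4 of 8 resident-type markers (Cd68, Cd163, Adgre1 and C1qc), 5 of 8 pan-leukocyte genes (Ptprc, Coro1a, Laptm5, Fcer1g and Aif1), 7 of 8 lysosomal genes (all but Cd63), 0 of 8 inflammatory genes and Fcgr2b. The largest called differences were 1.77 ± 0.53 for Trem2 (adjusted p = 0.0252), 1.72 ± 0.45 for Fcgr2b (0.0126) and 1.62 ± 0.34 for Adgre1 (0.00294). Those of Cd163, C1qc and Gpnmb were near the threshold (adjusted p = 0.0324, 0.0466 and 0.0488) and were lost in 11, 19 and 20 of 31 alternative fits. With the replicate number as a block the adjusted p of Gpnmb was 0.0566. Trem2 lost its call in 4 of these fits, namely with the GAPDH covariate, without PE outflow replicates 2, 4 and 5, without replicate 5 alone and with 1 added in place of 16. Cd9 lost it in 4 (median centring, and without PE apex replicate 5 or PE outflow replicate 4 or 5), Cd68 in 2 (median centring, and without PE outflow replicates 2, 4 and 5) and Ctsb in 1 (median centring). Cd14, Lyz2 and Fcgr3a, which rose in the outflow tract, had differences of 0.74, 0.81 and 0.77 that were not called (adjusted p = 0.11, 0.105 and 0.0869). In 3, 6 and 2 of 31 alternative fits they were called, so a smaller regional difference than that of the other classes is not shown. Of the 34 genes, 17 were not called for the difference, and 11 of these 17 gained a call in some fit.

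Between the regions of vehicle rats, 0 of 34 genes were called by limma, 0 had an unadjusted p under 0.05 (3.13% of all genes did), and 0% of all genes were called. Their median change was -0.0014. In PE rats 24 of the 34 genes were higher in the outflow tract than in the apex (22.3% of all genes), with a median of 0.90, and 0 were lower (15.5% of all genes). C1qa was not among them (0.58, adjusted p = 0.0628) but was called with the rat as a replicate block (adjusted p = 0.0498). For 12 of the 34 genes the PE outflow arrays all lay above the PE apex arrays, against 16.5% of all genes. Arrays of the same number within a treatment were read as 1 rat, and the PE rats had 31, 26, 31, 33 and 32 of the 34 genes higher in outflow than in apex. Among the vehicle rats these counts were 11, 11, 14, 28 and 12, so vehicle rat 4 stood apart from the others. Of the 34 genes, 22 were higher in the outflow tract in all 5 PE rats, and 1 was in all 5 vehicle rats. Counts by rat over all genes were not computed. By the limma change between the regions, 56.83% of all genes were positive in PE rats and 48.74% in vehicle rats.

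The mean of the 8 resident-type markers on the log2 scale, minus the mean of the vehicle arrays of the same region, was 0.68, 0.34, 0.65, 0.60 and 0.55 on the PE apex arrays, and the mean of the pan-leukocyte genes 0.31, 0.06, 0.05, 0.06 and 0.02. The resident-type mean exceeded the pan-leukocyte mean on all 5 PE apex arrays, by 0.28 to 0.59, and on all 5 PE outflow arrays, by 0.28 to 0.47. On the 10 vehicle arrays the same difference lay between -0.30 and 0.23. Against the inflammatory class, the resident-type mean was higher by 0.27 to 0.81 on the PE apex arrays and by 0.35 to 1.41 on the PE outflow arrays, against -0.43 to 0.28 on the vehicle arrays. The median log2 fold changes of the classes were 0.58 in the apex and 1.40 in the outflow tract for the resident type, 0.17 and 1.19 for the pan-leukocyte genes, 0.11 and 1.41 for the lysosomal genes, and 0.13 and 0.74 for the inflammatory genes. These values describe genes chosen with earlier results known and carry no test of their own. Of the 8 inflammatory genes, Itgam, Nos2, S100a8, S100a9 and Arg1 were dim, between the 14th and 39th percentile of probe sets, and Fcgr3a was at the 50th.

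**Figure D4:**
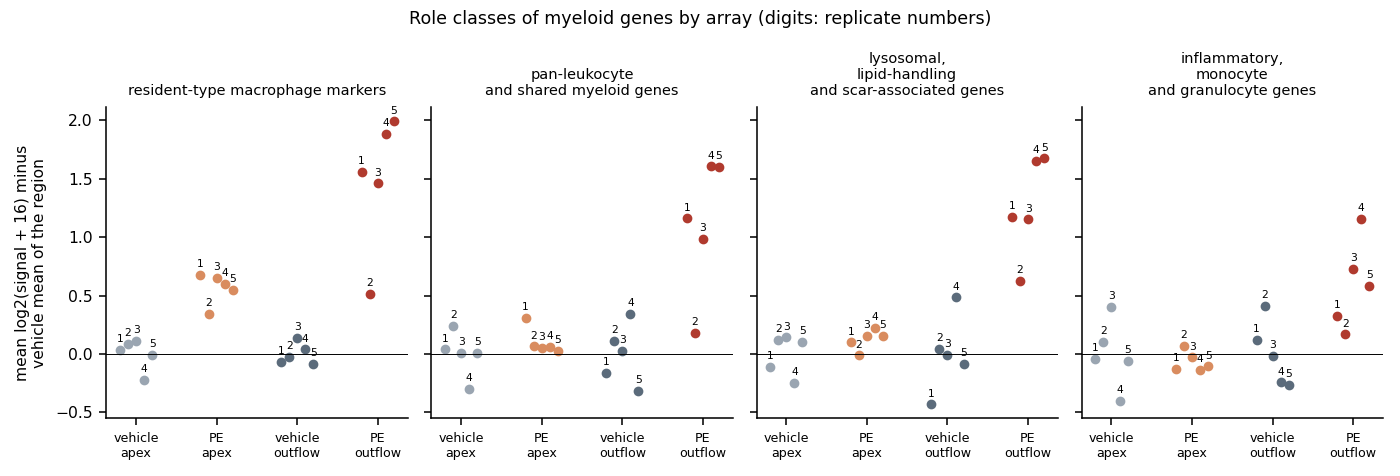
Mean log2(signal + 16) of each class minus the vehicle mean of the region (y axis) on each array, with replicate numbers beside the points. On PE apex arrays the resident-type class lies between 0.34 and 0.68 and the other classes between -0.14 and 0.31, while on PE outflow arrays all 4 classes are above 0 and replicate 2 is the lowest.

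Genes of the same pathways were read from lists, which hold Csf1 and Csf1r of the 34 genes again. In the outflow tract 26.3% of all genes were called higher and 18% lower. Of 9 measured genes listed for ITAM signalling, the pathway below FCER1G and TYROBP, 8 rose and 0 fell in the outflow tract. Among them were Vav1 (1.25 ± 0.18) and the inhibitory phosphatases Ptpn6 (1.28 ± 0.18) and Inpp5d (1.11 ± 0.14), and Lyn did not pass (-0.05 ± 0.24). The list mixes activating and inhibitory members, so the count gives no direction of signalling. Of 9 further resident macrophage markers 8 rose, with Stab1, a scavenger receptor, at 2.01 ± 0.13, the factor XIII chain F13a1 at 1.26 ± 0.17 and the transcription factor Maf at 1.26 ± 0.19. In the phagocyte oxidase, which makes superoxide, 4 of 5 genes rose (Cybb 1.58 ± 0.20, Ncf4 1.12 ± 0.19) and Ncf1 fell by 1.39 on the log2 scale (SE 0.24, adjusted p = 0.000157).

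Of 15 other lysosomal genes 10 rose and 2 fell, against 26.3% of all genes called higher and 18% called lower. Among the 15, Gusb (1.57 ± 0.15), Hexa (1.41 ± 0.13) and Ctsz (1.33 ± 0.19) had the smallest p. Of 13 recruited monocyte and cytokine genes 8 rose and 0 fell, led by the prostaglandin synthase Ptgs2 (3.23 ± 0.36), with Plac8 at 1.45 ± 0.28 and the lipopolysaccharide receptor Tlr4 at 0.96 ± 0.20. The monocyte chemokine receptor Ccr2, named after its values were seen, changed by -0.35 ± 0.35 (adjusted p = 0.495). This was the lowest value of the list, in which 11 of 13 changes were positive. Of the 8 colony stimulating factors and receptors, with Csf1 and Csf1r counted again, 4 rose, namely Csf1r, Il34 (0.70 ± 0.18), Csf2ra (0.61 ± 0.18) and Csf3r. In the apex 0 of the 59 genes of these 6 lists, Csf1 and Csf1r included, were called by limma. An unadjusted p under 0.05 was found for 10 of the 59, against 8.3% of all genes. Among these 10 were F13a1 at 0.90 and Ptgs2 at 1.22, the highest apex values of their lists.

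Markers of other cell types moved in the same comparison, where 26.3% of all genes were called higher and 18% lower. Fibroblast markers rose in 7 of 8 cases (median 1.41; Pi16 2.20 ± 0.19, Pdgfra 1.37 ± 0.14, Dpt 1.46 ± 0.12), with a summed signal of 165475 to 189332 on the PE outflow arrays against 67915 to 97718 on the vehicle outflow arrays. Mast cell markers rose in 4 of 6 cases (Fcer1a 2.03 ± 0.18, Cpa3 2.13 ± 0.22, Cma1 2.27 ± 0.27), and their summed signal was 1430 to 2466 against 499 to 711. Of these 6 changes 5 were positive, and the lowest was -0.59. Cardiomyocyte markers fell in 6 of 7 cases (median -0.68; Ryr2 -1.499 ± 0.21, Pln -0.94 ± 0.15, Atp2a2 -0.74 ± 0.19), with sums of 132648 to 349435 against 279074 to 338840. The part that this shift among tissue markers has in the myeloid values was not tested.

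Lymphocyte and granulocyte markers were less uniform. Of 11 T and NK cell markers 3 rose (Lck 0.59 ± 0.15, Cd3d 1.31 ± 0.44 and Cd3e) and Gzmb fell by 0.75 on the log2 scale, near the background of 26.3% of all genes higher and 18% lower, with sums of 1773 to 2940 on the PE outflow arrays against 1516 to 1812. Of 3 B cell markers (Ms4a1 0.85 ± 0.37, Cd79b, Cd22) and of 3 neutrophil markers (Cxcr2 0.41 ± 0.23, Mmp8, Camp) 0 were called by limma. Ms4a1 had an unadjusted p under 0.05 (0.0307) and the other 5 did not. The neutrophil markers were near the floor of the arrays, with summed signals of 8.17 to 64.4 on the PE outflow arrays and 16.8 to 53.0 on the vehicle outflow arrays, and S100a8 and S100a9 were as dim. Endothelial markers went both ways, with Vwf (1.84 ± 0.18) and Tek (0.72 ± 0.13) higher and Kdr lower (-0.62 ± 0.17). Of 3 red cell markers Slc4a1 was lower (-1.56 ± 0.42), while Hbb (1.38 ± 0.71) and Alas2 (0.51 ± 0.46) were not called.

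**Figure D5:**
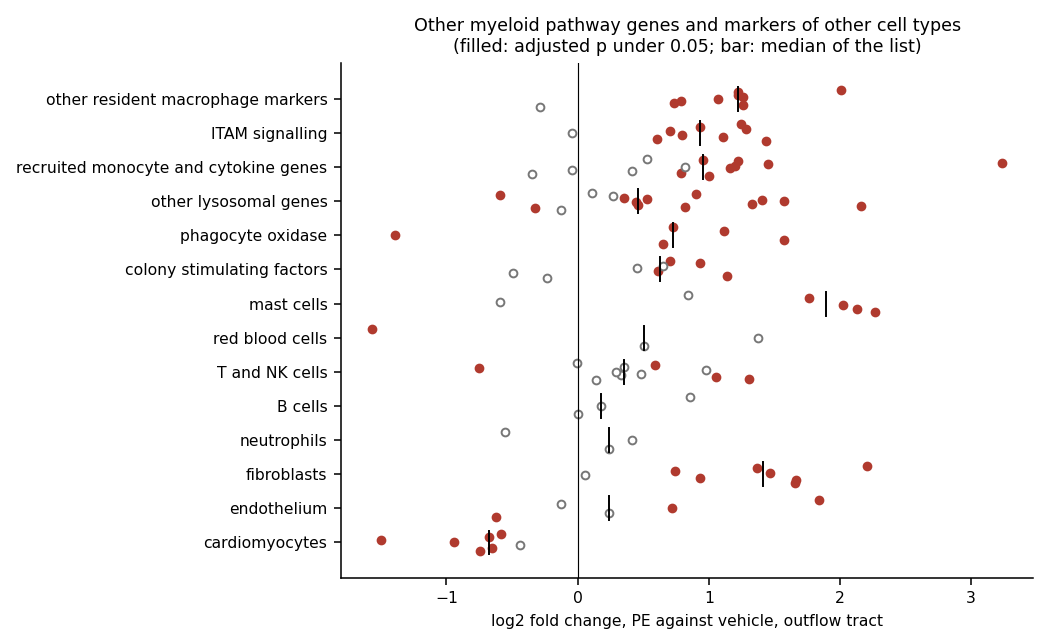
Log2 fold change of PE against vehicle in the outflow tract (x axis) for each measured gene of 6 further myeloid lists and 8 cell type marker lists, filled where the adjusted p was under 0.05, with a bar at the list's median. Fibroblast markers and most mast cell markers lie to the right with most genes of the macrophage lists, cardiomyocyte markers to the left, and neutrophil and B cell markers have no called gene.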

How the data were processed

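Each array's deposited value column holds a linear signal intensity for every probe set, and the summarising software is not given in the sources used here. The authors had scaled the arrays: after trimming 2% at either end, all array means were between 500.18 and 500.21. After leaving out 57 control probe sets, 31042 were tested. The platform annotation gave 20826 of them a single symbol, 436 several and 9780 none, and each gene is given by its brightest probe set on average. Signals plus 16 were taken to log2 and fitted with limma 3.58.1 in R 4.3.3 (4 groups, eBayes, two-sided, Benjamini-Hochberg over all 31042). The procedure was also run on simulated data with independent noise. That simulation held no rat pairing and no array of poor RNA, so it does not cover these features of the data. The labels call the replicates biological, and their number limits the precision. Of the 34 genes, 6 had several probe sets.

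The members, classes and lists were chosen with earlier results of these data known. Array signals are given in full for the 4 members of each class with the smallest p in the outflow tract, for Csf1 and Fcgr2b, and for members whose probe sets differ in sign there, and for lists up to 3 genes with the smallest p; others are named after their values were seen. All 42 probe sets matched RefSeq (GRCr8) by gene identifier.

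Taking probe sets brighter than 8 on the log2 scale, deviations from the group mean correlated between same-numbered apex and outflow arrays at 0.181 to 0.283, and each array matched its own number best, so a number was taken to mark 1 rat of a treatment. Between vehicle and PE they correlated at -0.283 to 0.154 and do not pair.

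Alternatives were quantile normalization, median centring, 1 or 64 added in place of 16, the dimmest 40% left out, only the compared groups, another variance model, array weights, blocks, the GAPDH covariate, a fold of at least 1.5, all probe sets of a gene, and arrays left out.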

Additional observations from a re-analysis of the deposited data

Results flagged for a closer look

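Among 136 groups of 5 arrays (34 genes in 4 groups), 8 held an array far from the other 4 on the log2(signal + 16) scale, where chance flags about 1 in 20 groups. PE outflow replicate 2 was low for Csf1r (10.69, the others 11.53 to 11.83), C1qa (10.75, the others 11.89 to 12.35), C1qb (9.42, the others 10.78 to 11.09) and Cd53 (9.11, the others 10.99 to 11.69). This array also had the GAPDH ratio of 6.12, whose part in these values was not tested. Vehicle apex replicate 4 was low for Cd68 (8.04, the others 8.76 to 8.84), Csf1r (9.81, the others 10.15 to 10.26) and Cd53 (9.23, the others 9.93 to 10.19), with a GAPDH ratio of 1.52, inside the range of its group. PE apex replicate 2 was high for the dim S100a9 (5.75, the others 4.18 to 4.38).

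The effect of PE differed between the regions for 17 genes by limma's test of the difference, always with the larger value in the outflow tract. On the log2 scale the differences were 1.77 for Trem2, 1.72 for Fcgr2b, 1.62 for Adgre1, 1.54 for Gpnmb, 1.47 for Ctss, 1.41 for Ptprc, 1.35 for Aif1 and 1.26 for Apoe. They were 1.20 for Coro1a, 1.12 for Cd9, 1.10 for Lgals3, 1.04 for Cd68, 1.02 for Fcer1g, 0.95 for Cd163, 0.93 for C1qc and Laptm5, and 0.54 for Ctsb.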

How the results depend on the processing

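The number of genes called in the outflow tract was 26 to 28 with an array left out and 25 to 30 under the other alternatives, and 24 of the 27 genes kept their call in each refit. The exceptions were Cd53, Fcgr3a and Arg1, and Ctsb, at 1.48-fold, is not called where a fold of at least 1.5 is asked for. For the regional difference the count was 13 to 25 with an array left out and 11 to 25 otherwise, with 11 when arrays were centred on their median, which moves the median of all probe sets in the outflow tract from 0.0524 to -0.0817, and 10 of the 17 genes kept their call in each refit. In PE rats the regional count was 22 to 27, and the apex and vehicle rats gave 0 under each alternative. With the rat as a replicate block the counts were 27, 17 and 25 for the outflow tract, the difference and the PE regions, and with the replicate number as a fixed block 27, 16 and 24. These blocks changed the call of Gpnmb (difference, fixed block) and of C1qa (PE regions, rat block), and no other call. What depth limits here is signal over background: Itgam, Nos2, S100a8, S100a9, Arg1 and Trem2 were among the dim genes.

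Of 3953 recomputed member values 117 turned sign, 0 of them of a gene called in that comparison. The causes were not tested. In the apex Itgam turned to -0.0079 with array weights, and Cd9 to -0.0085 with median centring and -0.0039 with the GAPDH covariate. In the outflow tract Itgam turned to -0.049 with median centring and -0.059 with 1 added, Cd63 to -0.028 with median centring, and S100a9 to -0.085 with array weights, -0.24 with the GAPDH covariate and -0.47 without PE outflow replicates 2, 4 and 5. The difference for Itgam turned to -0.050 with quantile normalization, -0.11 with median centring and -0.23 with 1 added. Between the regions of vehicle rats the GAPDH covariate gave -0.038 for C1qa, -0.066 for C1qb, -0.0089 for Lyz2, -0.055 for Tyrobp and 0.021 for Csf1, array weights -0.00097 for Coro1a and 0.028 for Csf1, and median centring 0.010 for Csf1. Between the regions of PE rats S100a8 turned to 0.16 with array weights and 0.058 with the covariate.

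Leaving out an array gave these ranges where a sign turned. In the apex they were -0.15 to 0.39 for Itgam, -0.34 to 0.17 for S100a8, -0.015 to 0.31 for Itgb2, -0.0012 to 0.070 for Ctsb, -0.20 to 0.15 for Gpnmb, -0.059 to 0.090 for Cd9 and -0.15 to 0.015 for Csf1. In the outflow tract they were -0.11 to 0.53 for Itgam and -0.10 to 0.44 for S100a9, and for the difference -0.30 to 0.45 for Itgam and -0.56 to 0.030 for S100a8. Between the regions of PE rats S100a8 ran from -0.34 to 0.19. Between the regions of vehicle rats they were -0.18 to 0.055 for Cd68, -0.20 to 0.0046 for Adgre1, -0.037 to 0.061 for C1qa, -0.077 to 0.080 for C1qb, -0.15 to 0.029 for Mrc1, -0.16 to 0.13 for Lyz2 and -0.25 to 0.013 for Arg1. They were -0.083 to 0.51 for S100a8, -0.088 to 0.57 for S100a9, -0.018 to 0.076 for Coro1a, -0.048 to 0.13 for Laptm5, -0.063 to 0.26 for Itgb2, -0.11 to 0.053 for Fcer1g and -0.13 to 0.11 for Tyrobp. They were -0.24 to 0.029 for Aif1, -0.10 to 0.17 for Lgals3, -0.36 to 0.16 for Gpnmb, -0.021 to 0.26 for Apoe, -0.13 to 0.0071 for Cd9 and -0.063 to 0.12 for Csf1.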
